A study of Danio rerio with 6 samples.

Results

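The muscle calcium handling and excitation coupling genes of zebrafish larvae are described here, 33 genes that were chosen by name because their proteins release, store, pump, sense or buffer calcium in muscle. Of the 33 names, 32 were found among the 39214 genes of the deposited table, 27 had enough signal to be tested, and ryr2a was not found by name. The RNA came from AB wild type zebrafish at 5 dpf (days post fertilization), 3 libraries of the control group and 3 of the group kept in 4 mg/L Lurasidone, an antipsychotic drug. The methods give 0.01% DMSO as the solvent control and an exposure from 5 to 120 hpf, while the labels give 3 hpf as its start. The methods describe the collection of entire larvae but the isolation of RNA from brain, and they do not give the number of larvae in a library. The sample titles name 5 dpf larvae and no tissue. The values are FPKM, the number of fragments on a gene divided by its length and by a library size set by the authors.

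In skeletal muscle an action potential runs into the transverse tubules, where the voltage sensor (the L-type channel formed by cacna1s with its beta and gamma subunits and the adaptor stac3) opens ryanodine receptors in the facing membrane of the sarcoplasmic reticulum (SR). Calcium held on calsequestrin leaves the SR and starts contraction, and SERCA pumps (the atp2a genes) return it. Junctophilins hold the tubule and SR membranes together, and parvalbumins bind calcium in the cytosol and speed the relaxation of fast fibers. Many of these genes have a pair of copies in zebrafish, marked a and b.

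Some genes of calcium release, voltage sensing and SR pumping, among them ryr3, ryr1b, cacna1sb and atp2a1, were higher in Lurasidone larvae. Of 5 tested pump genes 2 were higher, and atp2a1 kept its call in 11 of 18 alternative fits. The named rows of the abundant parvalbumin genes were not called. In limma on log2(FPKM + 1), 11 of the 27 tested genes passed a Benjamini-Hochberg adjusted p of 0.05 as higher (40.7%, against 5.79% of all 23409 genes tested) and 0 as lower (against 3.9%). At an unadjusted p of 0.05 the counts were 16 higher and 3 lower, and limma voom on fragments called 1 gene lower, pvalb4. The share of all genes was not taken for these counts, so they cannot be judged against it. DEGs, which also had to reach a log2 fold change of 1 or -1, numbered 5, all higher (ryr3, cacna1sb, pvalb6, jph2 and ryr1b), against 2.61% of all genes as higher DEGs and 1.22% as lower DEGs. Of the 11, pvalb6 and pvalb7 reached the minimum of 0.5 FPKM in 3 libraries through the Lurasidone group alone, so a higher value was built into their being tested. Without them 9 of 25 genes were higher and 4 were DEGs. pvalb6 rested on at most 46 fragments in a library, and another gene model with its annotation was called lower. The 3 Lurasidone libraries lay above the 3 control libraries for 17 of the 27 genes (17.1% of all genes) and below them for 4 (16.2%). The median log2 fold change was 0.56 over the 27 genes and -0.02 over all genes tested. Outside the parvalbumins, 19 of 21 genes had a fold change above 0 (median 0.67, against -0.02 over all genes tested). Of these 21 genes 9 were called higher, against 5.79% of all genes. The number of genes called higher varied with the library left out. It was 4 without control replicate 1 and 5 without Lurasidone replicate 1, 2 or 3. The share of all genes called in these fits was not taken, so these counts cannot be judged against it. Without a Lurasidone library pvalb6 and pvalb7 could not be tested, since the filter still asked for 3 libraries. In bulk RNA, a different number of cells of a type and a different amount of RNA per cell cannot be told apart.

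**Figure D1:**
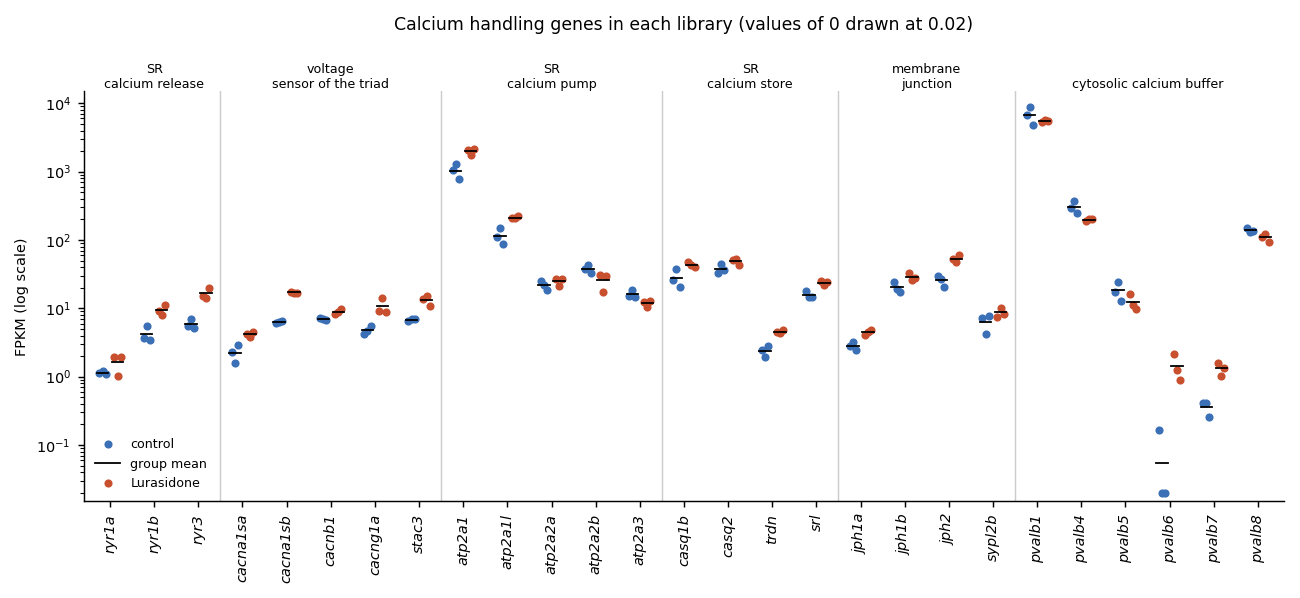
FPKM of the 27 tested genes on a log axis, grouped by role, with 1 point per library (blue control, orange Lurasidone) and a black line at each group mean. Genes range from pvalb1, with a control mean of 6834 FPKM, to pvalb6, with a control mean of 0.0545 FPKM, and 2 control libraries of pvalb6 at 0 are drawn at 0.02.

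Among the calcium release channels, 2 of the 3 tested ryanodine receptor genes of the list were higher, and ryr3 had the largest log2 fold change of the 27 genes on the log2(FPKM + 1) scale. With a pseudocount of 0.1 or voom, pvalb6 (3.40 and 4.83) and pvalb7 (1.62 and 1.87) exceeded ryr3 (1.47 and 1.49). ryr3 (chromosome 20, 29268444 to 29420713, GRCz11), a ryanodine receptor of zebrafish fast muscle, measured 5.54, 6.98 and 5.17 FPKM in control replicates 1 to 3 and 15.4, 14.3 and 20.1 in the Lurasidone replicates. Every Lurasidone library exceeded every control library, and the closest pair still differed by more than the whole control range. Its log2 fold change was 1.35 (SE 0.18, 95% interval 0.94 to 1.75, limma adjusted p = 0.0032). ryr1b (chromosome 18, 35491473 to 35736591), the release channel coupled to the voltage sensor in fast fibers, measured 3.69, 5.54 and 3.40 FPKM in control and 9.12, 8.08 and 11.3 in Lurasidone. The groups were apart here too, with control replicate 2 the highest of its group for both genes. The log2 fold change of ryr1b was 1.02 (SE 0.20 in limma, adjusted p = 0.015), and the adjusted p rose to as much as 0.0713 when control replicate 1 or Lurasidone replicate 3 was left out.

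The other ryanodine receptors gave no call. ryr1a, the slow fiber form in zebrafish, measured 1.14, 1.21 and 1.08 FPKM in control and 1.94, 1.03 and 1.95 in Lurasidone, so the groups overlapped through Lurasidone replicate 2 (log2 fold change 0.28, 95% interval -0.17 to 0.72, limma adjusted p = 0.39). The cardiac type ryr2b had between 3 and 23 fragments in a library and was not tested. A row without a gene name, ENSDARG00000098856, is described in the table as the cardiac receptor ryr2a. This row measured 4.73 ± 1.62 FPKM in control and 3.70 ± 0.84 in Lurasidone (SD, n = 3), with overlapping groups (log2 fold change -0.27, 95% interval -0.78 to 0.25, limma adjusted p = 0.48). Further rows outside the list, most on chromosome 17, are annotated as ryanodine receptor 3 and were looked at after their values were seen. Those starting at 526157 and 538363 measured 4.55 ± 0.81 and 5.20 ± 1.06 FPKM in control. In Lurasidone they measured 4.51 ± 0.40 and 4.19 ± 1.26 (limma adjusted p = 0.99 and 0.45). No tested row of this annotation was called, and their log2 fold changes all lay below 0, down to -0.92.

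Of 5 voltage sensor genes, 3 were higher, and cacna1sb had the tightest replicates of the 11 called genes. cacna1sb (chromosome 8, 25767610 to 25808403), the pore and voltage sensing subunit, measured 6.15, 6.28 and 6.46 FPKM in control and 17.4, 17.0 and 17.0 in Lurasidone. The group means differed 2.72-fold, with an SD of 0.155 FPKM in control and 0.219 FPKM in Lurasidone. Its log2 fold change was 1.32 (SE 0.14, 95% interval 1.00 to 1.63, limma adjusted p = 0.0013). cacng1a (chromosome 6, 21470261 to 21492752), the gamma subunit of the muscle channel, measured 4.21, 4.64 and 5.58 FPKM in control and 9.23, 14.0 and 8.95 in Lurasidone. All Lurasidone libraries were higher, Lurasidone replicate 2 most of all. The log2 fold change of cacng1a was 0.99 (SE 0.20 in limma, adjusted p = 0.016), and the call was lost without control replicate 1 (adjusted p = 0.0763).

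The adaptor gene stac3 (chromosome 9, 307863 to 321351), which links the channel to the release machinery, measured 6.64, 6.87 and 7.02 FPKM in control and 13.6, 15.0 and 10.7 in Lurasidone. Control libraries agreed closely, and the spread lay in the Lurasidone group. limma gave a log2 fold change of 0.83 (SE 0.17, adjusted p = 0.016), with no call once control replicate 1 or either of Lurasidone replicates 1 and 2 was left out (adjusted p up to 0.0724). The second pore gene, cacna1sa, measured 2.29, 1.57 and 2.89 FPKM in control and 4.20, 3.85 and 4.52 in Lurasidone, groups that did not overlap. It missed the threshold narrowly (log2 fold change 0.69, SE 0.19, limma adjusted p = 0.0507) and passed it without control replicate 3. cacnb1, the beta subunit that brings the channel to the membrane, was 6.96 ± 0.17 FPKM in control and 8.95 ± 0.77 in Lurasidone (SD, n = 3), with a log2 fold change of 0.32 (95% interval -0.01 to 0.65, limma adjusted p = 0.19).

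Of the SR calcium pumps, only the skeletal muscle genes atp2a1 and atp2a1l were called, both as higher. atp2a2b and atp2a3 lay lower in all Lurasidone libraries, a position shared by 16.2% of all genes tested, and did not pass the test. atp2a1 (chromosome 3, 26081343 to 26157066), the SERCA pump of fast fibers, measured 1054, 1282 and 768 FPKM in control and 2091, 1751 and 2117 in Lurasidone, and ranked 25 by mean FPKM in the whole table. Groups were apart, with control replicate 3 lowest. For atp2a1 limma gave a log2 fold change of 0.97 (SE 0.26, adjusted p = 0.045), and the call was lost without control replicate 1 or any 1 Lurasidone library (adjusted p up to 0.146), and also with no filter on low values (adjusted p = 0.146). atp2a1l (chromosome 12, 13244149 to 13263658), a related pump gene, measured 111, 149 and 88.5 FPKM in control and 207, 208 and 223 in Lurasidone. Control replicate 2 was again the highest and replicate 3 the lowest control, and the lowest Lurasidone library exceeded them all. limma gave it a log2 fold change of 0.90 (SE 0.21, adjusted p = 0.028), lost without the same 4 libraries (adjusted p up to 0.105) and with no filter (adjusted p = 0.0624).

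atp2a2b, which with atp2a2a makes the SERCA form of heart and slow muscle, measured 37.7, 42.8 and 32.4 FPKM in control and 31.2, 17.5 and 29.9 in Lurasidone. Its highest Lurasidone library was just under its lowest control (log2 fold change -0.54, SE 0.23, limma adjusted p = 0.16). atp2a3, a pump best known from cells other than muscle, was 16.2 ± 2.27 FPKM in control and 11.8 ± 1.31 in Lurasidone (SD, n = 3; log2 fold change -0.42, limma adjusted p = 0.13). For atp2a2a the groups overlapped, with 21.8 ± 3.46 and 25.1 ± 3.11 FPKM (log2 fold change 0.20, 95% interval -0.19 to 0.59, limma adjusted p = 0.49). A further row without membership in the list, si_dkey-28b4.8, is annotated as a SERCA2 protein and was looked at after its values were seen. It measured 24.3 ± 4.20 FPKM in control and 16.6 ± 4.48 in Lurasidone (log2 fold change -0.55, limma adjusted p = 0.14).

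Of 4 tested genes of the SR store, trdn was higher. trdn (chromosome 20, 40150612 to 40231379), triadin, which anchors calsequestrin at the release channel, measured 2.43, 1.93 and 2.77 FPKM in control and 4.46, 4.38 and 4.76 in Lurasidone. The Lurasidone libraries stood well apart from the controls. For trdn the log2 fold change came to 0.72 (SE 0.17, limma adjusted p = 0.028), and 5 of the 6 fits that left out a library lost the call (all but the one without control replicate 3), with adjusted p up to 0.0948. The call of trdn was also lost with no filter (adjusted p = 0.0582). casq1b, the skeletal muscle calsequestrin, measured 26.3, 37.5 and 20.4 FPKM in control and 47.1, 43.8 and 40.6 in Lurasidone, with no overlap (log2 fold change 0.67, SE 0.21, limma adjusted p = 0.080, and a call without control replicate 2). srl, sarcalumenin, a calcium binding glycoprotein of the SR, measured 18.2, 14.5 and 14.7 FPKM in control and 25.3, 21.8 and 24.2 in Lurasidone. Its groups were also apart (log2 fold change 0.56, SE 0.16, limma adjusted p = 0.051). casq2, best known as the cardiac calsequestrin, was 37.6 ± 5.62 FPKM in control and 48.7 ± 5.16 in Lurasidone, with overlap (log2 fold change 0.37, 95% interval -0.01 to 0.75, limma adjusted p = 0.19). casq1a was listed at 0 in all 6 libraries.

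A second sarcalumenin-like gene, ENSDARG00000112959, has no symbol in the table and is not one of the 33, and it was looked at after its values were seen. It measured 3.58, 3.55 and 3.67 FPKM in control and 8.66, 10.3 and 9.70 in Lurasidone, far apart against the control range. The log2 fold change of this row was 1.20 (SE 0.15, limma adjusted p = 0.0024), and it was called in all 18 alternative fits.

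Of the membrane junction genes, jph2 was called. jph2 (chromosome 23, 35721607 to 35756115), the junctophilin of heart and skeletal muscle, measured 30.1, 27.0 and 20.7 FPKM in control and 52.9, 47.7 and 60.1 in Lurasidone. The lowest Lurasidone library was above the highest control by more than the control range. For jph2 the log2 fold change was 1.03 (SE 0.18, 95% interval 0.62 to 1.43, limma adjusted p = 0.010). jph1a, a junctophilin of skeletal muscle, rested on 114 to 205 fragments in a library and was 2.82 ± 0.39 FPKM in control and 4.48 ± 0.34 in Lurasidone (log2 fold change 0.52, limma adjusted p = 0.074). Its copy jph1b was 20.3 ± 3.62 and 29.0 ± 3.51 FPKM (log2 fold change 0.50, limma adjusted p = 0.099), and the groups were apart for both. sypl2b, which encodes a mitsugumin protein of the triad membranes, was 6.40 ± 1.92 and 8.73 ± 1.41 FPKM, with overlap (log2 fold change 0.42, 95% interval -0.08 to 0.92, limma adjusted p = 0.24).

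**Figure D2:**
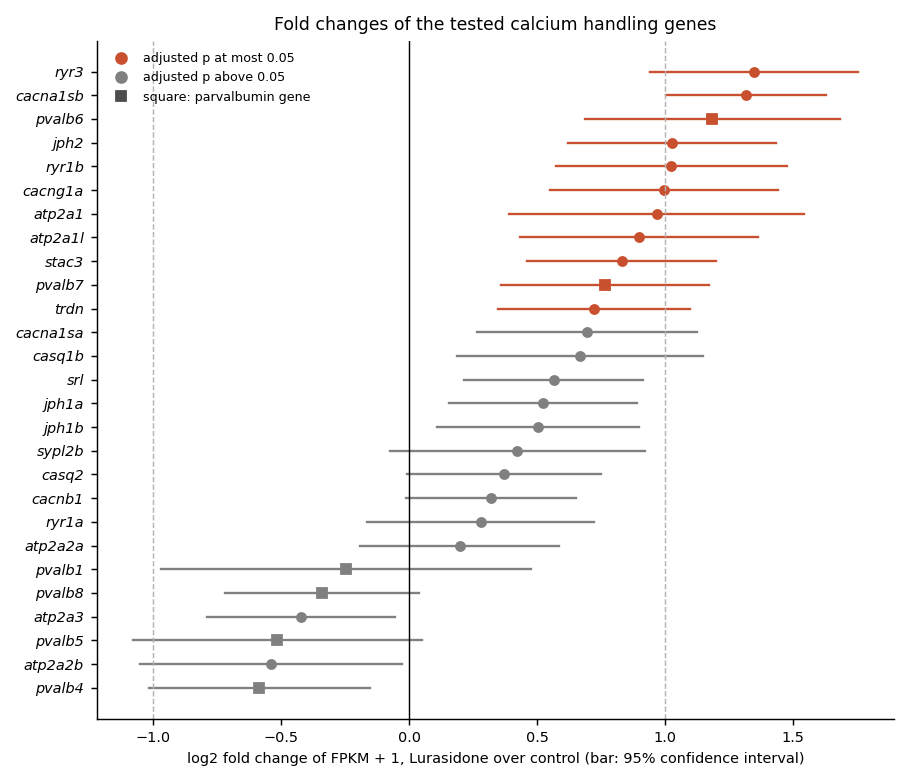
Log2 fold change of FPKM + 1, Lurasidone over control, of the 27 tested genes, with 95% confidence intervals from limma, orange where the adjusted p was at most 0.05 and squares for parvalbumins. The 11 called genes run from trdn at 0.72 to ryr3 at 1.35, and the 6 genes below 0 are 4 parvalbumins and the pumps atp2a2b and atp2a3.

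Among rows under a gene name, the most abundant parvalbumin genes gave no call. pvalb1, the third most abundant gene of the table by mean FPKM, measured 6697, 8981 and 4823 FPKM in control and 5392, 5784 and 5563 in Lurasidone. The Lurasidone libraries fell inside the wide control range (log2 fold change -0.25, SE 0.32, 95% interval -0.97 to 0.47, limma adjusted p = 0.65), with changes in either direction inside the interval. pvalb4 measured 295, 367 and 250 FPKM in control and 190, 204 and 205 in Lurasidone, all below the lowest control. Its fold change was -0.59 on the log2 scale (SE 0.19, limma adjusted p = 0.084), and it was called lower without control replicate 3 (-0.72) and by voom (-0.59). pvalb8 measured 147, 132 and 135 FPKM in control and 111, 123 and 94.1 in Lurasidone, also without overlap (log2 fold change -0.34, SE 0.17, limma adjusted p = 0.22). pvalb5 was 18.4 ± 5.87 FPKM in control and 12.4 ± 3.46 in Lurasidone, with overlap (log2 fold change -0.52, 95% interval -1.08 to 0.05, limma adjusted p = 0.21). These 4 genes share a position that their selection did not use: all lie on the minus strand of chromosome 3 between 61154219 and 61218375.

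Pump and buffer genes were also set against each other within each library. The FPKM of atp2a1 was 0.157, 0.143 and 0.159 of that of pvalb1 in control and 0.388, 0.303 and 0.381 of it in Lurasidone. Each gene alone varied widely among controls (768 to 1282 and 4823 to 8981 FPKM), while their ratio, which a scaling of the library cannot change, kept an SD of 0.0090 around a control mean of 0.153. The mean ratio was 2.33-fold higher in Lurasidone (two-sided exact permutation p = 0.1, the smallest that 3 against 3 libraries can give). The ratio of ryr3 to cacna1sb did not separate the groups (0.937 ± 0.160 and 0.968 ± 0.184, SD, n = 3, exact permutation p = 0.7), nor did that of atp2a1 to atp2a1l (8.92 ± 0.49 and 9.34 ± 0.86, exact permutation p = 0.6). These pairs were chosen after their values were seen.

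Levels were then summed over the listed genes of each family that were found by name. Rows outside the list were left out, among them the ryr2a row ENSDARG00000098856 (4.73 ± 1.62 FPKM in control and 3.70 ± 0.84 in Lurasidone). Also left out were the further rows annotated as ryanodine receptor 3. Those starting at 526157 and 538363 on chromosome 17 measured 4.55 and 5.20 FPKM in control and 4.51 and 4.19 in Lurasidone. The other tested rows of this annotation measured 3.91, 3.57, 2.90, 2.25, 2.02 and 1.49 FPKM in control. In the same order they measured 3.34, 1.25, 1.94, 2.10, 1.45 and 0.494 in Lurasidone. Each row left out had a lower mean in Lurasidone. Together these values are not small beside the ryr sum, and a sum that holds them was not tested. Summed FPKM of the ryr genes was 10.4, 13.8 and 9.66 in control and 26.5, 23.5 and 33.4 in Lurasidone. For cacna1s the sums were 8.44, 7.84 and 9.35 in control and 21.6, 20.9 and 21.5 in Lurasidone, and for atp2a they were 1243, 1515 and 922 in control and 2368, 2009 and 2410 in Lurasidone. The mean calsequestrin sum was 65.6 FPKM in control and 92.5 in Lurasidone, and the mean junctophilin sum 49.0 and 87.0. In these sums of listed genes, the Lurasidone libraries lay above every control library for all 5 families (two-sided exact permutation p = 0.1 each, the smallest possible). For ryr this holds for the named genes alone. The parvalbumin sum was 7158, 9505 and 5221 FPKM in control and 5713, 6125 and 5874 in Lurasidone, with overlap (exact permutation p = 0.4).

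Within these family sums, the most abundant copy took a larger part in 3 cases. ryr3 held 53.2, 50.7 and 53.5% of the summed FPKM of the 4 named ryr genes in control and 58.2, 60.9 and 60.0% in Lurasidone. The ryr2a row and the further rows annotated as ryanodine receptor 3 are not part of that sum, so the share holds for the named genes alone. jph2 held 52.7, 54.3 and 51.5% of the junctophilin sum in control and 58.9, 60.9 and 64.6% in Lurasidone, and atp2a1 held 84.8, 84.6 and 83.3% of the pump sum against 88.3, 87.2 and 87.9%. The groups did not overlap for these shares (exact permutation p = 0.1, the smallest possible). The shares of atp2a2a, atp2a2b and atp2a3 in the pump sum were all smaller in Lurasidone, without overlap, at means of 1.11, 1.14 and 0.521% against 1.82, 3.12 and 1.35%. Since atp2a1 makes up most of that sum and was higher, a smaller share is not by itself a lower level. The FPKM of atp2a2a was 21.8 in control and 25.1 in Lurasidone, with overlap. The shares of cacna1sb (74.0 and 80.4%) and casq2 (57.8 and 52.6%) overlapped between groups (exact permutation p = 0.2 for both), and so did that of pvalb1 (93.5 and 94.5%, exact permutation p = 0.3).

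**Figure D3:**
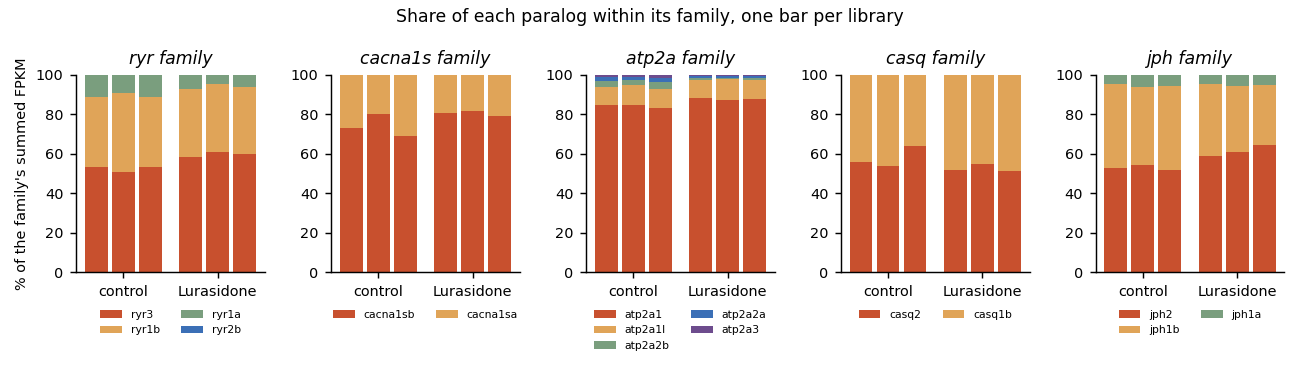
Share of each paralog in the summed FPKM of the listed genes of its family in percent, with 1 bar per library, for the ryr, cacna1s, atp2a, casq and jph genes. ryr3, atp2a1 and jph2, at the bottom of their bars, take a larger share in all 3 Lurasidone libraries than in any control library.

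Named parvalbumin genes did not hold all the fragments that match their proteins. Assembly GRCz11 carries alternate contigs, second versions of some regions, and the deposited table has gene models there under numbered names. By a rule chosen after the data were seen (the same protein accession in the description, on an alternate contig of the same chromosome within 10 kb), 7 of the 32 genes had such a model: ryr1a, casq1a, pvalb2, pvalb3, pvalb6, pvalb7 and pvalb9. How fragments were divided between the versions is not given in the sources used here, so the named rows of these genes are uncertain.

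The pvalb6 call changed sign between the versions. Named pvalb6 (chromosome 3, 24297482 to 24434905) had 4, 0 and 0 fragments in control and 46, 27 and 19 in Lurasidone, which is 0.164, 0 and 0 FPKM against 2.16, 1.27 and 0.902. It entered the test through the Lurasidone libraries alone, so a difference was built into its passing the filter. Its fitted log2 fold change was 1.18 (SE 0.22 in limma, adjusted p = 0.013), a value that depends on the pseudocount and ran from 1.14 to 4.83 over the 14 alternatives that tested it. Its alternate model measured 27.4, 40.2 and 24.5 FPKM in control and 11.2, 8.80 and 13.5 in Lurasidone, and all its Lurasidone libraries were lower. The alternate model had a log2 fold change of -1.37 (SE 0.22 in limma, adjusted p = 0.0068). Summed over both versions, pvalb6 had 29.8, 43.3 and 26.4 FPM (fragments per 1000000 of the library size) in control and 15.5, 11.5 and 15.9 in Lurasidone (two-sided exact permutation p = 0.1, the smallest possible), a log2 ratio of -1.21.

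pvalb7, the parvalbumin of zebrafish Purkinje cells, was higher under its name and not in its sum. The named gene (chromosome 22, 29165330 to 29242347) had 34, 26 and 20 fragments in control and 113, 74 and 95 in Lurasidone, or 0.414, 0.415 and 0.258 FPKM against 1.59, 1.03 and 1.34. It too passed the filter through Lurasidone alone (log2 fold change 0.76, SE 0.18, limma adjusted p = 0.031, lost without any 1 control library, with adjusted p up to 0.0908). Its alternate model held most fragments, at 29.5 ± 7.51 FPKM in control and 31.7 ± 7.50 in Lurasidone (log2 fold change 0.11, limma adjusted p = 0.79). The sum of both was 40.8 ± 9.71 and 48.8 ± 8.75 FPM (SD, n = 3, exact permutation p = 0.5).

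pvalb2, listed with 8, 5 and 5 fragments in control and 2, 0 and 1 in Lurasidone, was too low to test. Its alternate model measured 428, 660 and 495 FPKM in control and 256, 415 and 329 in Lurasidone, more than pvalb4, with every Lurasidone library below every control library (log2 fold change -0.66, SE 0.25, limma adjusted p = 0.12). Of the 17 alternatives that tested this model, voom alone called it lower (limma voom adjusted p = 0.0496). For casq1a, at 0 under its name, the alternate model measured 15.1, 17.1 and 13.9 FPKM in control and 21.8, 18.2 and 19.8 in Lurasidone, with the Lurasidone group above (log2 fold change 0.36, SE 0.15, limma adjusted p = 0.17). ryr1a had similar fragment numbers on both versions, and its sum overlapped between groups (38.6 ± 2.82 and 54.0 ± 14.8 FPM, exact permutation p = 0.3). pvalb3 and pvalb9, which lie beside pvalb2 on chromosome 12, were at 0 under their names, and their alternate models measured 0.645 ± 0.535 and 4.89 ± 0.80 FPKM in control and 1.05 ± 1.57 and 4.33 ± 3.30 in Lurasidone. With the alternate models added, the parvalbumin sum was 7888 ± 2237 FPKM in control and 6286 ± 293 in Lurasidone, still with overlap (exact permutation p = 0.4).

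**Figure D4:**
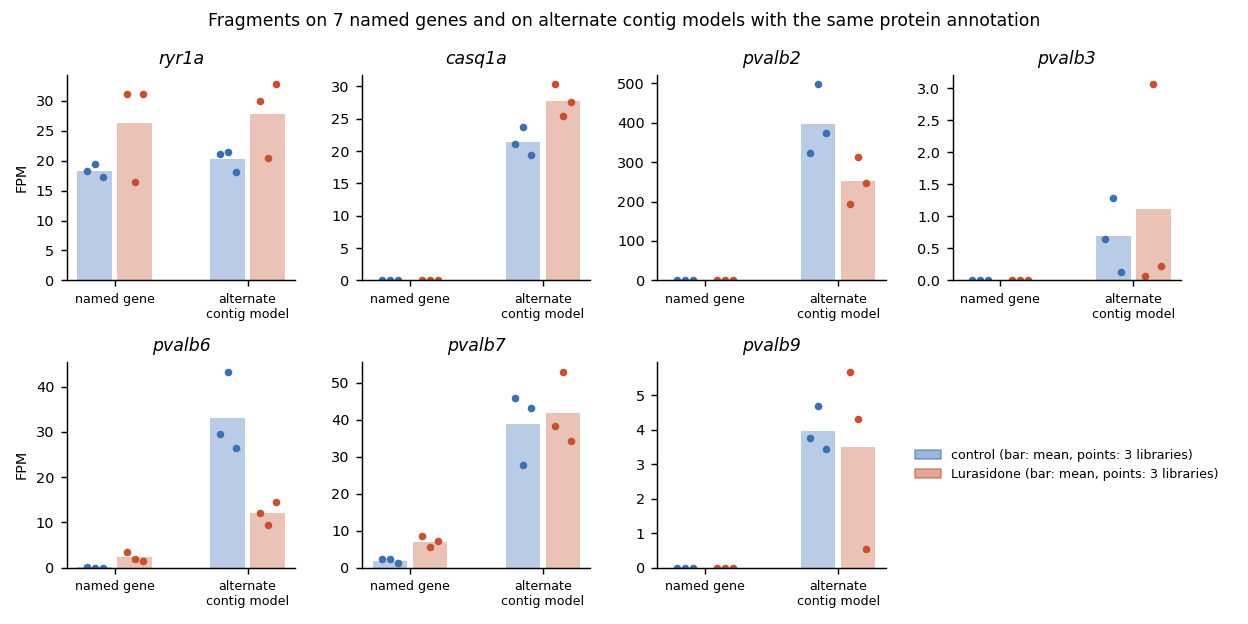
FPM (fragments per 1000000 of the library size) on 7 named genes and on the alternate contig models that carry the same protein annotation, with bars for the mean and points for the 3 libraries of each group. For pvalb6 the alternate model fell from 29.5, 43.3 and 26.4 to 12.0, 9.47 and 14.5, while the named gene stayed at 3.44 or less.

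Of 83 other calcium handling genes, listed by role, 72 rows were tested, with a median log2 fold change of -0.05. In limma 5 were higher and 0 lower, beside 5.79 and 3.9% of all genes tested. The counts were 10 and 8 at an unadjusted p of 0.05, and 7 and 2 with voom. For these counts the share of all genes was not taken. The 1 DEG was clcn1b, a chloride channel that steadies the muscle membrane, at 0.655, 0.440 and 0.285 FPKM in control and 2.84, 1.73 and 1.81 in Lurasidone. All its Lurasidone libraries were higher (log2 fold change 1.09, SE 0.20, limma adjusted p = 0.012), and it stayed called in all 17 alternatives that tested it. It rested on 39, 20 and 16 fragments in control and 147, 90 and 93 in Lurasidone. Of the controls only replicate 1 reached 0.5 FPKM, and the Lurasidone libraries alone met the filter. Under that filter its being tested leaned on a higher value, which limits what these calls say of its stability. cacna2d1a, the extracellular subunit of the L-type channel, was 4.31 ± 0.19 FPKM in control and 8.61 ± 1.09 in Lurasidone (log2 fold change 0.85, limma adjusted p = 0.012, lost without control replicate 1 or Lurasidone replicate 3). micu3b, a regulator of mitochondrial calcium uptake, was 1.17 ± 0.15 and 3.21 ± 0.75 FPKM (log2 fold change 0.94, limma adjusted p = 0.017, lost without control replicate 1 or either of Lurasidone replicates 2 and 3).

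Among the calcium sensors and effectors, 2 of 18 tested rows were higher, beside 5.79% of all genes, and the median log2 fold change of the role was -0.20. The calmodulin kinase gene camk2a was 9.42 ± 0.39 FPKM in control and 14.7 ± 1.84 in Lurasidone (log2 fold change 0.59, limma adjusted p = 0.042), and camk2d1 was 5.81 ± 1.19 and 10.1 ± 1.81 FPKM (log2 fold change 0.70, limma adjusted p = 0.049). camk2a lost its call when any 1 library was left out, and camk2d1 when any 1 but control replicate 3 was. Other camk2 genes went both ways without a call. camk2g1 and camk2g2 lay lower in all Lurasidone libraries (limma adjusted p = 0.12 and 0.079). camk2b1 and camk2b2 lay higher in all of them (limma adjusted p = 0.47 and 0.10), and camk2d2 overlapped. The 12 tested genes of calcium export across the plasma membrane had a median of -0.14 on the log2 scale, and the 8 of IP3 receptors and store-operated entry had one of 0.02. itpr3 and orai1b were listed at 0 in all libraries.

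Cell type markers were counted in the same fit, in which 5.79% of all genes were called higher and 3.9% lower. Of 17 tested fast muscle markers, 4 were higher, with a median log2 fold change of 0.08, and their summed FPKM ranged from 13353 to 20242 in control and from 18930 to 20492 in Lurasidone. Slow muscle markers had 3 of 9 tested rows higher (median 0.17), namely smyhc1 and both rows of smyhc2. Of the smyhc2 rows, 1 is a model of 555 bp with 21 to 158 fragments in a library. The log2 fold change was below 0 in 4 rows: myl10 (-0.34), tnnt1 (-0.30), tpm2 (-0.15) and tnnc1b (-0.01). Slow muscle marker sums also overlapped, at 387 to 673 and 461 to 502 FPKM. Of 13 myogenic factors 1 was higher, and their sum was 65.0 to 84.3 FPKM in control and 89.2 to 95.9 in Lurasidone, without overlap. Sums of 10 cardiac markers overlapped (35.2 to 38.0 and 35.6 to 43.0 FPKM). Sums of pan-neuronal markers were lower without overlap (742 to 858 and 575 to 602 FPKM), with 0 of 10 genes called by limma. At an unadjusted p of 0.05, 5 were lower, and with voom 2 were, counts for which the share of all genes was not taken. Purkinje cell marker sums were lower too, at 71.5 to 84.0 and 56.2 to 67.8 FPKM (1 of 7 called lower). Hair cell marker sums were 62.4 to 80.5 and 54.1 to 58.0 FPKM, without overlap, and smooth muscle marker sums overlapped, at 187 to 353 and 174 to 200 FPKM. No cell type list had a marker at 0 in all libraries, but some were close to it. The fast muscle markers mylpfa and tnnc2 had at most 6 fragments in a library, and the cardiac marker tnni1a at most 4. Alternate contig models of the markers were not looked for. Liver markers, at 2923 to 4794 FPKM over both groups, were present in RNA that part of the methods describes as brain. The part of these shifts in the calcium handling values was not tested.

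Fold changes were set against gene length, by which FPKM is divided. Among genes of 4 to 8 kb, 5 of 10 tested members were called, against 6.15% of all 4665 genes of that length, and the median log2 fold change was 0.73 against -0.0016. Above 8 kb 2 of 3 were called, against 4.45% of 853 genes, with medians of 1.02 and -0.07. For genes under 1 kb, which here are pvalb1 and pvalb8, the medians were -0.29 and -0.09. With a correction of gene length all 11 genes kept their call, and cacna1sa became the 12th (adjusted p = 0.0481).

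**Figure D5:**
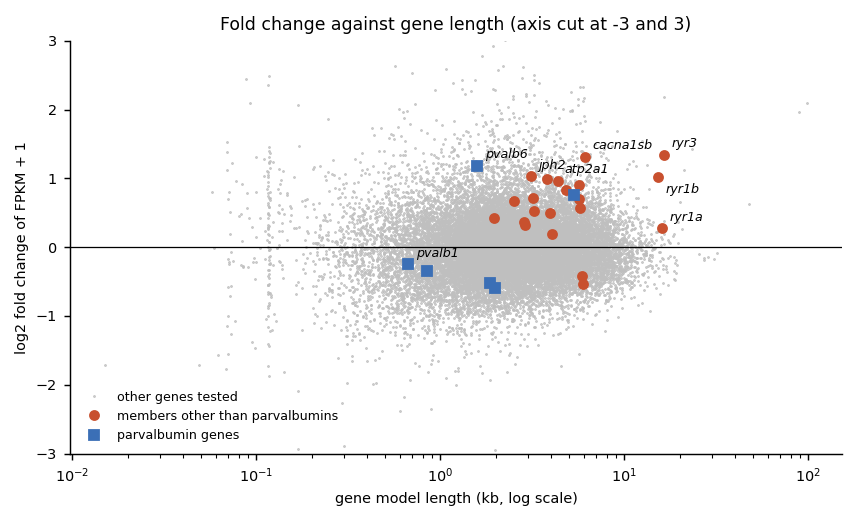
Log2 fold change of FPKM + 1 against gene model length in kb on a log axis, with all genes tested in grey, the listed genes other than parvalbumins as orange circles and parvalbumin genes as blue squares. The bulk of all genes stays around 0 at every length (bin medians from -0.09 to 0.01), while ryr3 at 1.35 and cacna1sb at 1.32 lie above it.

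Depth and scaling differed among the libraries. The libraries held 11749887 to 15107664 fragments on genes, and these totals came to between 84.52 and 104% of the denominators of the FPKM values. Control replicates 3 and 2 were the ends of that range, and were also the lowest and highest controls for atp2a1, atp2a1l and pvalb1. Under a scaling to summed fragments, chosen after the data were seen, all 11 genes kept their call and casq1b and srl joined them. A fold change on the log2(FPKM + 1) scale understates the change of genes near 1 FPKM, and p-values cover the spread between these 6 libraries alone.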

How the data were processed

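RNA of zebrafish larvae, 3 control and 3 Lurasidone libraries, was sequenced by the authors as paired-end reads, and the authors deposited FPKM values for 39214 genes with gene lengths. The aligner, the counting tool and the strand setting are not given in the sources used here, and the build (GRCz11, danRer11) is from the submitters' processing notes. Columns were assigned to groups by their names, and 0 columns were of unknown samples. Multiplying FPKM by gene length gave back the fragments, and 100% of the values came out whole within 0.01. A linear model of log2(FPKM + 1) on the group was run in limma 3.58.1 (R 4.3.3, eBayes with a variance trend) over the 23409 genes that reached 0.5 FPKM in 3 or more libraries. Sums, shares and ratios were tested by exact permutation of the libraries (scipy 1.17.1, two-sided). All listed genes are named with their values. From the list of further calcium genes, DEGs and up to 3 called genes per role and direction are named, with the uncalled camk2 genes and genes at 0 in all libraries. Both lists, the marker lists and the tests were chosen with earlier results of these data known. Alternatives were median-ratio scaling, quantile normalization, a filter of 5 FPKM or none, a pseudocount of 0.1, no variance trend, protein-coding genes only, a loess correction (span 0.5) of gene length, a replicate block alone or with that correction, voom on fragments of genes with at least 2, and leaving out each library. A scaling to summed fragments and sums with alternate contig models were added after the data were seen. The fit was tested on simulated fragments. Promoter and protein sequences were not used here. Of genes with near-identical copies, the division of fragments is uncertain, and without a stated strand antisense reads cannot be told apart.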

Additional observations from a re-analysis of the deposited data

How the results depend on the processing

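All 11 called genes kept a log2 fold change above 0 in each alternative that tested them, and ryr3, cacna1sb and jph2 kept their call in all 18. Named pvalb6 kept its call in the 14 that tested it, which left out no Lurasidone library and, under the 0.5 FPKM filter, admitted it through that group alone, so this says nothing of its stability. With no filter 8 genes were higher, without atp2a1, atp2a1l and trdn. Over the 18 alternatives 5 other genes gained a call (cacna1sa, casq1b, srl, jph1b and, as lower, pvalb4). Quantile normalization gave 8 DEGs, and voom gave 1 gene lower. Same-numbered control and Lurasidone libraries had correlations of 0.118, -0.103 and 0.006, and differently numbered ones ran from -0.215 to 0.189. With 3 libraries in a group these values cannot settle whether the replicate numbers pair the libraries. The replicate block left 7 genes higher, without atp2a1, atp2a1l, trdn and pvalb7 (8 with length correction). Leaving out 1 library gave 4 to 11 genes higher, 0 to 1 lower and 3 to 7 DEGs. Without a Lurasidone library the filter dropped pvalb6 and pvalb7, and the cause of the other lost calls was not tested. Of the further calcium genes, 3 were higher with no variance trend, no filter, the replicate block or the block with length correction, and 1 was lower with the 5 FPKM filter, protein-coding genes or length correction and 2 with voom. Leaving out 1 library gave 1 to 4 higher and 0 to 1 lower. The share of all genes was not taken in any of these alternatives, so their counts cannot be judged against it. With alternate contig models added, the share of ryr3 was 9.86 points higher in Lurasidone (7.23 without them) and that of pvalb1 2.56 points (1.04 without them). Depth limits named pvalb2, with 0 to 8 fragments in a library, ryr2b, with 3 to 23, and the control level of named pvalb6, with 0 to 4, where 3 was taken as the limit of detection.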
